A study of Caenorhabditis elegans with 2 samples.

Results

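Weak promoter peaks of FKH-10 were the sites near gene starts that the pooled ChIP-seq list held but the optimal, reproducibility-filtered set left out. They were selected on the deposited pooled signal and on summit position. A member had a pooled signal below 37.02, the lowest signal in the optimal set, and a summit between 1000 bp upstream and 200 bp downstream of the start of a protein-coding gene. Of 19924 pooled peaks, 17322 lay below the cut, and 4193 of those were weak promoter peaks. The optimal set held 2602 peaks, of which 1000 had a promoter summit by the same window. The signal of a member is a value the choice rests on, and it is given below as a description with no test.

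The data came from whole L1 larvae, the first larval stage, of Caenorhabditis elegans strain OP337, with both sexes pooled. The strain carried unc119(ed3) and the transgene wgIs377, which holds fkh-10 tagged at its C terminus (TY1, EGFP and FLAG) together with an unc119 marker. There was 1 group of 2 biological replicates from separate biosamples and no second condition, chromatin was sheared by sonication, and the label of the antibody reads fkh-10 and no more. All values therefore describe the tagged transgene product in 1 strain, over all cells of the animal at once, and fewer cells with a bound site and less binding per cell cannot be told apart.

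Forkhead factors are transcription factors that contact DNA through a winged-helix domain and are known for binding sites built around the letters TAAA. A ChIP-seq peak is a stretch where sequenced fragments pile up over background. The irreproducible discovery rate (IDR) ranks peaks by how well replicates keep the same order, and lists made as its input are deliberately long, so that they run from strong sites down into background. The peaks below an IDR cut near promoters are thus a mixture whose makeup is not known beforehand.

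The summit sequences below are shown as examples of members near the cut that hold a forkhead-type word, a GA repeat or neither. They were taken in order of signal, but windows with more than 30 bases of non-coding exon and those on 1 chromosome were passed over. Members of higher signal at unc-69, osta-2, C37C3.9 and his-67 are therefore not among them. Each is 101 bases of the plus strand of ce11, from the RefSeq copy of WBcel235, centred on the summit and printed 5′ to 3′. In the first set the capitals mark the forkhead word, which was ATAAATA on either strand, with G also allowed as its first letter and C as its last but one. The form present in all of them was ATAAATA itself. The stg-1 summit, at a gene for a stargazin-like glutamate receptor auxiliary subunit, lay 50 bp upstream of the gene start, and its word began 42 bases after the summit. The C03E10.1 summit lay 641 bp upstream. The summit at cic-1, which encodes cyclin C of the Mediator complex, lay 46 bp upstream, and its word began 19 bases after the summit.
stg-1, chrII:10060660-10060760: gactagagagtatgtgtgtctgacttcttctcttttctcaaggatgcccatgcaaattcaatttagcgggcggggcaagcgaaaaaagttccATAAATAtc
C03E10.1, chrV:11290497-11290597: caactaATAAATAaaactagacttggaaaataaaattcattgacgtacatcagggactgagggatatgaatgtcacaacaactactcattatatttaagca
cic-1, chrIII:2401217-2401317: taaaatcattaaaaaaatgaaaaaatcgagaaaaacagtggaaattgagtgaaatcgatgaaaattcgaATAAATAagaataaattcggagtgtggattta

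In the second set the capitals mark GAGAGAGA or its reverse complement. The summit at flp-9, which encodes an FMRFamide-like neuropeptide, lay 50 bp upstream of the gene start, and its repeat began 4 bases before the summit. The fahd-1 summit, 247 bp upstream, had its repeat 3 bases after the summit. The summit 235 bp upstream of ndc-80, a kinetochore gene, had a longer repeat that began 32 bases after the summit, and it also lay 451 bp upstream of the collagen gene col-2. In the last pair, which is shown in lower case, neither word was present. The sas-5 summit, at a centriole duplication gene, lay 49 bp upstream, and the ckr-2 summit, at a cholecystokinin receptor homologue, lay 197 bp downstream in an intron.
flp-9, chrIV:12757570-12757670: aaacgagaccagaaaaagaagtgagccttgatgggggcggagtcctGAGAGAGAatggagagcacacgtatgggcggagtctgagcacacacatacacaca
fahd-1, chrIII:7891959-7892059: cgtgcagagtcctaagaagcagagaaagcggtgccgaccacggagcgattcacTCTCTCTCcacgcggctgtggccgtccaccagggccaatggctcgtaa
ndc-80, chrIV:10085852-10085952: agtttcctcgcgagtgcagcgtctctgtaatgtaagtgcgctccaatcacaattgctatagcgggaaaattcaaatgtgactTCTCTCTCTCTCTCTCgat
sas-5, chrV:11610638-11610738: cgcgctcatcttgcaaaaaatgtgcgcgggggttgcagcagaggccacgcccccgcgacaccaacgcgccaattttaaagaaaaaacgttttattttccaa
ckr-2, chrIII:2021348-2021448: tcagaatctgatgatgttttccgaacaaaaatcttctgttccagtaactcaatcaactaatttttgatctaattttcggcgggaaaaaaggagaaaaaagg

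The members next to the cut are given here beside the optimal peaks on its other side. Just below the cut, the unc-69 peak (III, 10318766 to 10319141) had a pooled signal of 37.007, with 20.3 in replicate 1 and 18.2 in replicate 2. Its summit lay 15 bp inside unc-69, a gene of axon outgrowth. The osta-2 peak (II, 5707619 to 5707994), in an intron of an organic solute transporter gene, had 37.0005, 21.97 and 14.5. The sas-5 peak (V, 11610500 to 11610875) had 36.996, 17.6 and 17.4. In these 3 peaks the replicate 1 signal was the higher, by little at sas-5. By rank within each list, replicate 2 stood higher at unc-69 (2551 against 2930) and at sas-5 (2708 against 3826). Replicate 1 stood higher by rank at osta-2 (2547 against 3446). Just above the cut, the peak at ipgm-1, a phosphoglycerate mutase gene (I, 6569190 to 6569565), had 37.03 in the pool, 16.3 in replicate 1 and 23.3 in replicate 2. The next optimal ones were at F57B9.1 with a pooled signal of 37.07, at C24H11.2 with 37.1, at the β-tubulin gene tbb-2 with 37.3 and at rnp-2, a spliceosomal protein gene, also with 37.3. The 2 sides are set apart by the pooled signal alone, and no test was made across the cut.

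Single members at the same pooled level could be unlike in the replicates. The flp-9 peak had a pooled signal of 36.97, with 27.7 in replicate 1 and 7.001 in replicate 2. The C37C3.9 peak (V, 7854618 to 7854993) had 36.9 in the pool and 25.3 in replicate 2, and no replicate 1 peak overlapped it. The K05C4.4 peak (I, 14734715 to 14735090) had 36.98, 24.5 and 20.03. Replicate 1 was thus far the higher at flp-9, replicate 2 stood alone at C37C3.9, and both were high at K05C4.4. The others of the 10 highest members were at ckr-2 with 18.3 and 17.7 in replicates 1 and 2, at F30A10.9 with 15.2 and 17.5, at T26G10.1 with 15.4 and 20.55 and at fahd-1 with 18.4 and 14.2. At the other end of the list were mod-5, the serotonin reuptake transporter gene, with a pooled signal of 12.4, viln-1 and nhr-193. All 3 were overlapped by a replicate 1 peak, of signal 10.3, 8.45 and 11.2, and by none of replicate 2.

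Over all 4193 members the pooled signal had a median of 16.4 and an interquartile range of 14.05 to 20.98, against a median of 60.6 in optimal promoter peaks. For description the members were put in 4 equal groups by signal, called signal groups 1 to 4, with bounds of 12.4 to 14.05, 14.06 to 16.35, 16.36 to 20.978 and 20.981 to 37.007. Nearly all members were of 1 width, 376 bp, in 4190 of 4193. The deposited −log10 q-value was at least 1 in 649 members (15.5%) and at least 2 in 234 (5.58%), and all of these were in signal group 4. These values did not fall steadily with signal. Near the cut the value was 3.017 at the optimal ipgm-1 peak (signal 37.03) and 3.020 at the weaker F30A10.9 peak (36.9). In 8 of the 4193 members it was at or above 2.94, the lowest of the optimal promoter peaks, so the 2 classes overlapped only in those. The median −log10 q-value was 0.178 in members and 3.57 in optimal promoter peaks.

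The share of peaks in promoter windows was highest at the top of the weak list. Of the weak pooled peaks, 24.2% (exact 95% binomial interval 23.6 to 24.9%) had a promoter summit, against 38.4% (36.6 to 40.3%) of optimal peaks. The windows themselves cover 21.5% of the genome. When the 17322 weak peaks were put in 10 equal steps of signal, the share was 20.6% (18.7 to 22.6%) in the lowest and lay between 20.9% and 23.3% in the next 6. It was 24.7% in the eighth, 29.3% in the ninth and 34.8% (32.6 to 37.1%) in the highest, whose signals ran from 25.008 to 37.007. In the lower-signal 8661 weak peaks 21.5% (20.6 to 22.4%) were in promoter windows, the same share as the windows take of the genome. Binomial intervals speak of counted peaks or genes, which are not independent of their neighbours, and they do not hold the spread between replicates. Read depth is unknown, since the lists hold no read counts, and coverage of the control chromatin at these peaks was not analysed here.

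Support from the separate replicate lists followed the same order. The replicate lists were called from the reads that also make up the pool, so this overlap is a description. Of the 4193 members, 2005 (47.8%, 46.3 to 49.3%) were overlapped by a peak in both replicate lists, 1294 (30.9%) by replicate 1 only, 784 (18.7%) by replicate 2 only and 110 (2.62%) by neither. From signal group 1 to signal group 4 the share in both lists was 19.9%, 33.5%, 53.9% and 84.0%. Of the optimal promoter peaks, 995 of 1000 were in both. Weak peaks outside promoter windows were in both lists at 43.4%. The replicate lists are themselves long, with 28842 and 28896 peaks that cover 10.7% and 10.2% of the genome.

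**Figure D1:**
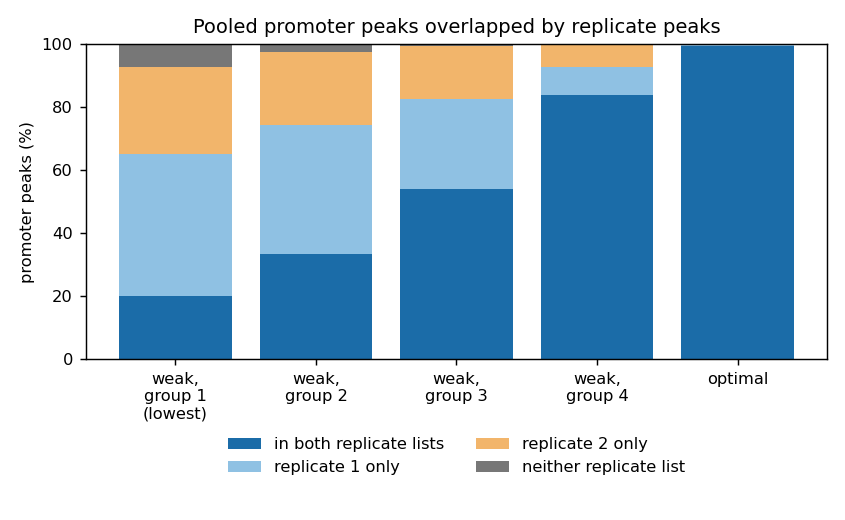
Share of promoter peaks (%, vertical axis) overlapped by a peak in both replicate lists, in 1 of them or in neither, for the 4 signal groups of the weak promoter peaks and for the optimal promoter peaks. The share in both lists is 19.9% in the lowest signal group, 84.0% in the highest and 99.5% in the optimal peaks.

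Where both replicates listed a peak, their signals followed each other loosely. In the 2005 members in both lists the median signal was 12.3 in replicate 1 and 8.69 in replicate 2, and replicate 1 was the higher in 1523. The replicate lists differed in the same direction, with medians of 10.5 and 6.82 over all their peaks. Spearman's rho between the replicate signals was 0.23 across these 2005 peaks and 0.62 across 995 optimal promoter peaks. The 2 values share libraries, and the weak peaks were cut to a narrow range of pooled signal, so the first is a description of that range. Of the members in both lists, 20 had replicate 1 signals above 40, from 40.4 to 82.3, with 20.8 to 64.1 in replicate 2, although their pooled signal was below 37.02. In all 20 the overlapping replicate peak in at least 1 list also overlapped an optimal peak, and the nearest optimal summit lay 199 to 267 bp away. In all, 54 members (1.29%) were overlapped by a replicate peak shared with an optimal peak in that way, and without them 1952 members (46.6%) were in both lists.

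**Figure D2:**
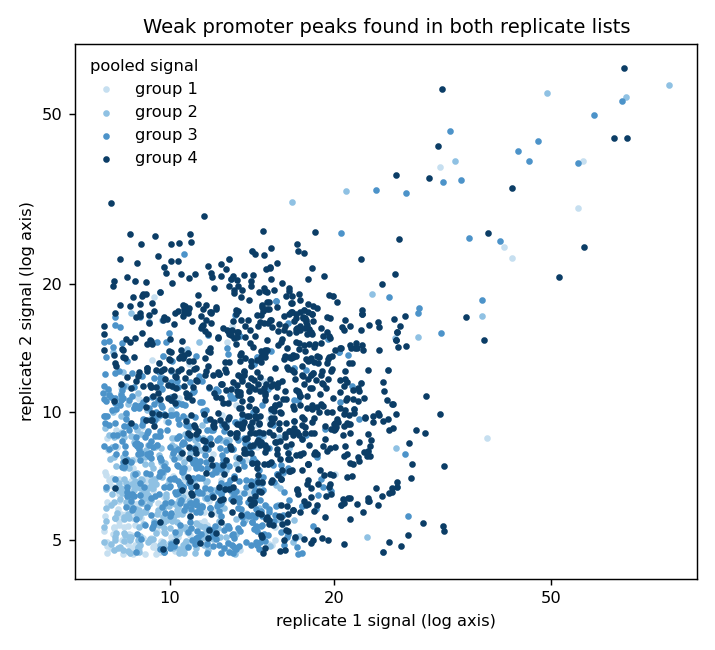
Deposited signal of the overlapping peak in replicate 1 (horizontal) and replicate 2 (vertical), both on log axes, for the 2005 weak promoter peaks in both replicate lists, coloured by pooled signal group. The points form a broad cloud (rho 0.23), and the 20 points beyond a replicate 1 signal of 40 are replicate peaks shared with a neighbouring optimal peak.

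The largest rank differences between replicates fell on 2 genes. Both weak peaks of sas-7, a centriole assembly gene, with pooled signals of 15.98 and 31.3, were overlapped by the same replicate peaks. Those had a signal of 24.6 and rank 2119 in replicate 1, and 4.70 and rank 28314 in replicate 2. The gldi-4 peak (IV, 7016528 to 7016903), 908 bp upstream, had the opposite order, with 7.80 and rank 27286 in replicate 1 against 31.04 and rank 1167 in replicate 2. Its pooled signal was 35.4. High pooled signals below the cut thus included peaks that rested mostly on replicate 1 and peaks that rested mostly on replicate 2.

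The position of the summits changed with signal. Signal group 1 was spread almost evenly over the window, with 6.39% to 9.82% of its summits in each 100 bp bin. In signal group 4 the bins ran from 3.63% to 20.3%, with the highest between 200 and 100 bp upstream, and the optimal promoter peaks had their highest bin, 23.4%, at the same place. The share of summits within 250 bp upstream of the nearest start was 23.7%, 24.0%, 31.8% and 42.1% in signal groups 1 to 4 and 48.7% in optimal promoter peaks. The median position was 343 bp upstream in signal groups 1 and 2, 269 bp in signal group 3, 217.5 bp in signal group 4 and 220.5 bp in optimal promoter peaks. Summits downstream of the start made up 16.3% of the members and 6.2% of optimal promoter peaks.

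**Figure D3:**
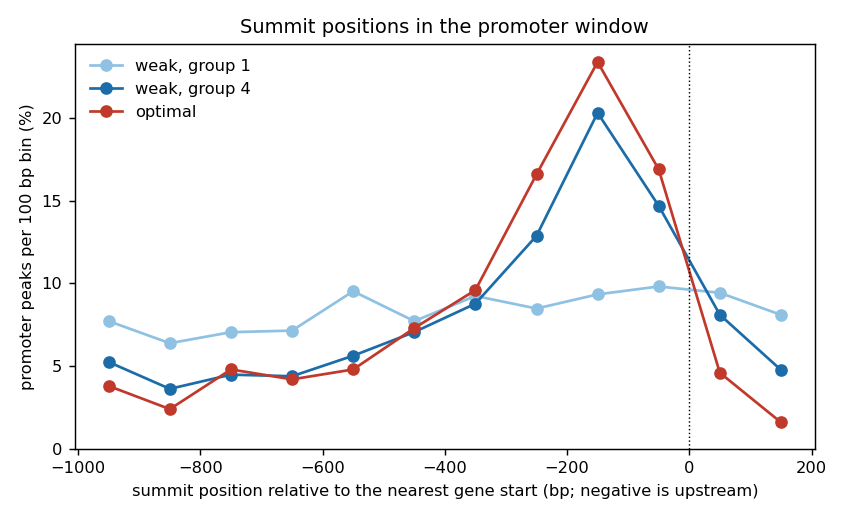
Share of promoter peaks per 100 bp bin (%, vertical axis) against the summit position relative to the nearest gene start (bp, negative is upstream). The lowest weak signal group is nearly flat, between 6.39% and 9.82%, while the highest weak signal group and the optimal peaks both reach their maximum between 200 and 100 bp upstream, at 20.3% and 23.4%.

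The kind of sequence under the summit differed too. A coding exon, of any gene, held the summit in 617 members (14.7%, 13.7 to 15.8%) and in 11 optimal promoter peaks (1.1%, 0.550 to 1.96%). From signal group 1 to 4 that share was 17.9%, 17.7%, 16.03% and 7.16%. Intergenic summits made up 62.9% of members and 78.1% of optimal promoter peaks, intronic ones 10.1% and 4.6%, and other exons 12.3% and 16.2%. Summits in the windows of 2 or more genes, as between divergently transcribed neighbours, made up 604 members (14.4%, 13.4 to 15.5%) and 286 optimal promoter peaks (28.6%, 25.8 to 31.5%). By signal group this share was 10.1%, 10.6%, 15.6% and 21.4%. Members in both replicate lists had a coding-exon summit in 17.7%, 18.8%, 15.8% and 6.36% of signal groups 1 to 4, and the other members in 17.98%, 17.2%, 16.4% and 11.3%.

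Neighbours of the weak promoter peaks were counted next. An optimal summit was found within 1000 bp of 204 members (4.87%) and within 500 bp of 58 (1.38%). The same share for other positions of the genome was not computed, so these counts do not say whether optimal summits are rare here. Small non-coding RNA genes were counted in the same way, again with no share for other positions. A tRNA gene start lay within 500 bp of 35 members (0.835%, 0.582 to 1.16%). For optimal promoter peaks this number was 15 (1.5%, 0.842 to 2.46%), and the intervals overlap. A snoRNA gene start lay near 26 members (0.620%, 0.405 to 0.907%) against 23 optimal promoter peaks (2.3%, 1.46 to 3.43%). For snRNA genes, which encode spliceosomal RNAs, the counts were 4 of 4193 and 10 of 1000, for miRNA genes 8 and 3, and for rRNA genes 0 and 0.

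By chromosome, the members lay closer to the distribution of genes than the optimal promoter peaks did on V. Chromosome V holds 25.004% of protein-coding genes and had 20.7% (19.5 to 22.01%) of the members and 15.1% (12.9 to 17.5%) of optimal promoter peaks. The X chromosome holds 13.7% of the genes and had 17.1% (15.99 to 18.3%) of the members and 19.4% (16.99 to 21.99%) of optimal promoter peaks. Per 100 genes there were 26.3 weak promoter peaks on X, 24.5 on III, 22.1 on I, 21.3 on II, 17.9 on IV and 17.4 on V. Differences between neighbours in this order were not tested.

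A weak promoter peak was found at 4450 of 19973 protein-coding genes (22.3%), an optimal one at 1275 (6.38%), and a weak one at 4313 of the 18698 genes with no optimal one (23.1%). Both kinds occurred at 137 genes, 10.7% of those with an optimal peak, and 14385 genes (72.0%) had neither. Most genes with a weak peak had 1, while 366 (8.22%) had 2 or more. Of the 12 genes with 3, those named by the rule were B0252.8, C01G12.13, K05C4.2, K05C4.3 and Y53C12B.7. The 3 peaks of B0252.8 had pooled signals between 15.4 and 24.4, and those of K05C4.3 between 16.3 and 19.1. In these 2 genes all 3 peaks were in both replicate lists, and in the other 3 genes 2 of 3 were.

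Gene lists for cell functions, tissues and families, 42 in all, were read against these background shares, and none was tested. Above the weak background of 22.3% lay 23 lists, and 22 lay above the optimal one of 6.38%. Where many genes of a list have an optimal peak, few are left to have only a weak one, so the share among genes with no optimal peak is given below, to be read against 23.1%. By that measure 24 lists were above the background. The interval lay wholly above it in 10 and wholly below it in 5.

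The lists were also joined into blocks, and the signal groups of their weak peaks were counted. The 620 genes of general cell function had an optimal peak at 192 (30.97%), and of the other 428 a weak one at 185 (43.2%). Their best weak peak was in signal group 4 at 19.6% (15.97 to 23.7%) of those 428 genes and in signal group 1 at 7.71% (5.37 to 10.7%), against 6.56% and 5.15% over all genes with no optimal peak. In the nervous system lists, 33.8% of 290 genes with no optimal peak had a weak one. From signal group 1 to 4 these were 11.03% (7.67 to 15.2%), 7.24%, 8.28% and 7.24% (4.54 to 10.9%) of the genes, with intervals that overlap. Lists of other tissues had a weak peak at 18.9% of 481 genes and regulator lists at 18.7% of 545. The large families, with chemoreceptors among them, had one at 15.8% of 2093 genes, with 4.78% in signal group 1 and 2.25% in signal group 4. Differences between blocks were not tested.

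**Figure D4:**
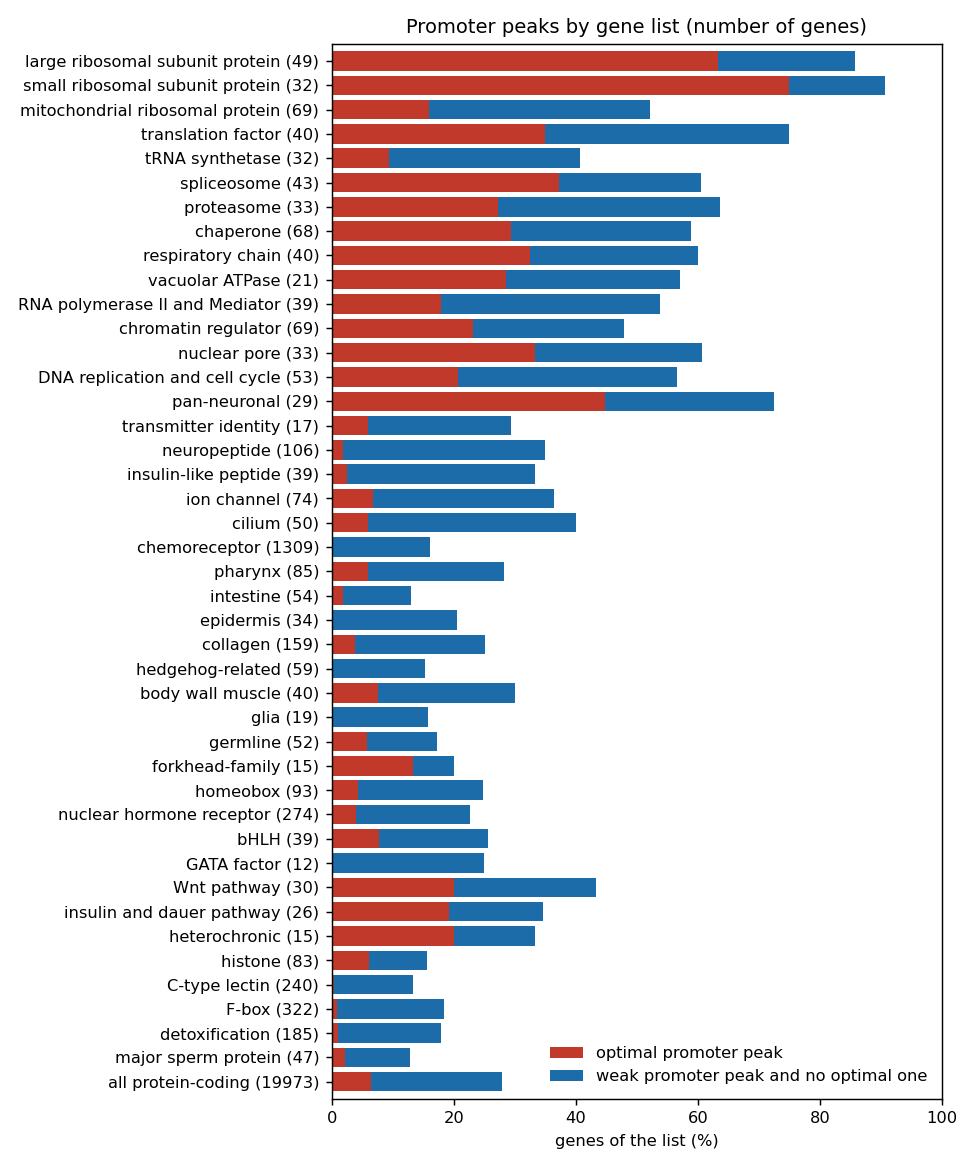
Share of the genes in each list (%, horizontal axis; number of genes in parentheses) with an optimal promoter peak (red) or with a weak promoter peak and no optimal one (blue). Ribosomal protein lists are mostly red, mitochondrial ribosomal protein, cilium and neuropeptide lists mostly blue, and the epidermis, hedgehog-related, glia and GATA factor lists have blue only.

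Genes of protein synthesis were split between the 2 kinds of peak. Among large ribosomal subunit protein genes, 31 of 49 had an optimal peak, and 11 of the other 18 a weak one (61.1%, 35.7 to 82.7%). The small subunit had 24 of 32 and then 5 of 8. Mitochondrial ribosomal protein genes had the opposite balance, with 11 of 69 optimal and 25 of the other 58 weak (43.1%, 30.2 to 56.8%). Translation factor genes had 14 of 40 and then 16 of 26 (61.5%, 40.6 to 79.8%), and tRNA synthetase genes 3 of 32 and then 10 of 29. The leading weak peak of the small subunit list was at rps-5, 434 bp upstream, with a pooled signal of 33.4, 30.6 in replicate 2 and no peak in replicate 1. That of the large subunit list, at rpl-2, had 29.7 in the pool, 31.8 in replicate 1 and 7.46 in replicate 2, and its summit was nearer to the start of calf-1. The mrpl-18 peak had 36.8, 15.3 and 24.3, that of eef-1B.2, an elongation factor gene, 31.7, 18.4 and 13.1, and that of the methionyl-tRNA synthetase gene mars-1 30.4, 20.96 and 8.34. Neither replicate was the higher throughout. With each summit given only to its nearest gene start, the weak share of the large subunit list fell from 22.4% to 10.2% and that of the mitochondrial list from 37.7% to 24.6%. Under that rule 19.4% of all protein-coding genes had a weak peak, in place of 22.3%. All of these shares also count genes with an optimal peak. The share among genes with no optimal peak was not computed per list under that rule. The weak share of the small subunit list was 18.75%. With peaks of the same ranks in place of the pool, it was 37.5% in replicate 1 and 25% in replicate 2. That of the tRNA synthetase list, 31.25% in the pool, was then 18.75% in replicate 1 and 25% in replicate 2.

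Proteasome and respiratory chain genes had weak peaks mostly found in both replicate lists. Of 33 proteasome genes, 9 had an optimal peak and 12 of the other 24 a weak one (50%, 29.1 to 70.9%). Of the 13 proteasome genes with any weak peak 12 had it in both replicate lists, against 2196 of 4450 over all genes. However, 11 of the 13 had a peak in signal group 4, where 84.0% of all members were in both lists. The leading proteasome peak, 135 bp upstream of pbs-3, a β subunit gene of the proteolytic core, had 36.3 in the pool, 13.2 in replicate 1 and 17.4 in replicate 2. Respiratory chain genes had 13 of 40 optimal and 11 of the other 27 weak, 10 of them in both lists, led by the ATP synthase subunit gene atp-5 with 36.3, 23.2 and 6.19, whose summit was nearer to the start of lmtr-3. Of those 11 respiratory chain genes, 9 had a peak in signal group 4. High shares in both lists were also found for RNA polymerase II and Mediator genes, 12 of 15, and bHLH genes, 6 of 7. RNA polymerase II and Mediator genes had 7 of 39 and then 14 of 32, and cic-1 led them with 35.8 in the pool, 30.7 in replicate 2 and no replicate 1 peak. Chaperone genes had 20 of 68 and then 20 of 48, led by the chaperonin subunit gene cct-5 with 36.2, 25.98 and 9.905. The weak share of the respiratory list, 27.5%, was 45% with replicate 1 and 37.5% with replicate 2 in place of the pool. It was 12.5% by nearest gene start, against 19.4% of all genes. Both of the last shares also count genes with an optimal peak. The share among genes with no optimal peak was not computed per list under that rule.

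The remaining lists of general cell function, and histone genes, were as follows. DNA replication and cell cycle genes had 11 of 53 optimal and 19 of the other 42 weak (45.2%, 29.8 to 61.3%), led by the replicative helicase subunit gene mcm-7 with 32.3, 17.6 and 14.4. Nuclear pore genes had 11 of 33 and then 9 of 22, led by npp-20 with 32.7, 20.6 and 14.2. Spliceosome genes had 16 of 43 and then 10 of 27, led by the SR protein gene rsp-3 with 33.7, 12.4 and 22.3. Chromatin regulator genes had 16 of 69 and then 17 of 53, led by mep-1 with 30.3, 15.3 and 21.8. Vacuolar ATPase genes had 6 of 21 and then 6 of 15, led by vha-16 with 32.4, 14.5 and 16.9. Histone genes had 5 of 83 and then 8 of 78 (10.3%, 4.53 to 19.2%), led by a summit shared by his-67 and his-68 with 36.5, 19.4 and 16.7. Histone copies are near-identical in places, so the counting of reads among them is uncertain. The weak share of the spliceosome list, 27.9%, was 44.2% with replicate 2 in place of the pool. By nearest gene start it was 16.3%, against 19.4% of all genes. Both of those shares also count genes with an optimal peak. The share among genes with no optimal peak was not computed per list under that rule, so the 2 values do not place the list below the background. The weak share of the vacuolar ATPase list, 33.3%, was 19.05% with replicate 2. It was 14.3% with a window of 500 bp upstream to 100 bp downstream, under which 13.96% of all genes had a weak peak.

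Neuronal lists other than chemoreceptors were read by the weak share among genes with no optimal peak. Its interval lay wholly above the background of 23.1% for pan-neuronal and neuropeptide genes and held it for the others. Pan-neuronal genes had 13 of 29 optimal and 8 of the other 16 weak (50%, 24.7 to 75.3%), led by the synaptogyrin gene sng-1, 406 bp upstream, with 35.7 in the pool, 27.8 in replicate 1 and 7.54 in replicate 2. Neuropeptide genes had 2 of 106, and 35 of the rest a weak one (33.7%, 24.7 to 43.6%), led by flp-9. Of those 35 genes 19 had their weak peak in both replicate lists. Cilium genes, which build the sensory endings of neurons, had 3 of 50 and then 17 of 47 (36.2%, 22.7 to 51.5%), but 6 of 17 in both lists. The leading one, at the ciliary transport gene dyf-11, had 31.2, 16.3 and 15.95. Insulin-like peptide genes had 1 of 39 and then 12 of 38 (31.6%, 17.5 to 48.7%), 4 of them in both lists, led by ins-3 with 32.3, 17.9 and 13.2. Ion channel genes had 5 of 74 and then 22 of 69 (31.9%, 21.2 to 44.2%), led by the potassium channel gene twk-43 with 23.3, 17.2 and 6.56. Transmitter identity genes had 1 of 17 and then 4 of 16 (25%, 7.27 to 52.4%), led by the GABA transporter gene snf-11 with 30.7, 14.8 and 17.7. In the higher-signal 8661 weak peaks alone, a weak peak was at 13.3% of all protein-coding genes in place of 22.3%. Under that setting the weak share went from 33.02% to 13.2% for neuropeptide genes, from 34% to 14% for cilium genes and from 29.7% to 16.2% for ion channel genes. With replicate 2 in place of the pool it was 16.2% for ion channel and 22% for cilium genes, against 22.01% of all genes.

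Lists of other tissues lay near or below the background of 23.1%. Intestine genes had 1 of 54 optimal and 6 of the other 53 weak (11.3%, 4.27 to 23.03%), none of the 6 in both lists. The highest, at erm-1, a gene for a membrane-cytoskeleton linker, had 27.7 in the pool, 16.7 in replicate 2 and no replicate 1 peak. Epidermis genes had 0 of 34 optimal and 7 of 34 weak (20.6%, 8.70 to 37.9%), none in both lists, and the highest, at bed-3, had 17.4 in the pool and 15.1 in replicate 1 alone. Hedgehog-related genes had 0 of 59 and 9 of 59, led by grl-30 with 16.3. Body wall muscle genes had 3 of 40 and then 9 of 37, led by hlh-1, the MyoD homologue, with 21.6, 12.4 and 6.23. Glia genes had 0 of 19 and 3 of 19, all 3 in both lists, led by the HIF prolyl hydroxylase gene egl-9 with 25.5, 15.1 and 8.24. Pharynx genes had 5 of 85 and then 19 of 80, led by the acetylcholinesterase gene ace-1 with 31.3, 21.2 and 11.8. Germline genes had 3 of 52 and then 6 of 49, led by him-17 with 25.01, 17.6 and 5.02. Collagen genes had 6 of 159 and then 34 of 153, led by col-2, whose summit is closer to ndc-80. Their weak share of 21.4% was 10.7% with replicate 2 in place of the pool. That of body wall muscle genes, 22.5%, was 12.5% with replicate 2 and 35% with replicate 1. That of intestine genes, 11.1%, was 18.5% with replicate 2 and 16.7% with replicate 1.

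Among regulators, the forkhead family itself had a single member. Of 15 forkhead-family genes, daf-16 and fkh-9 had an optimal promoter peak and fkh-7 a weak one, 631 bp upstream, with 13.1 in the pool, 9.52 in replicate 1 and no peak in replicate 2. The other 12, fkh-10 among them, had neither. The weak share of the list, 6.67%, was 33.3% with replicate 1 peaks of the same ranks in place of the pool, so it rests on which list is read. Homeobox genes had 4 of 93 optimal and 19 of the other 89 weak, led by ceh-89 with 27.8, 15.3 and 11.5. Nuclear hormone receptor genes had 11 of 274 and then 51 of 263 (19.4%), led by nhr-28 with 29.7, 13.1 and 19.4. The bHLH genes had 3 of 39 and then 7 of 36, led by mxl-3 with 23.98, 16.9 and 5.89. GATA factor genes had 0 of 12 and 3 of 12, none of the 3 in both lists, led by egl-27, which had 29.4 in the pool and 24.8 in replicate 1 alone. Wnt pathway genes had 6 of 30 and then 7 of 24, led by the axin gene pry-1 with 20.1 and no replicate 1 peak. Insulin and dauer pathway genes had 5 of 26 and then 4 of 21, led by daf-1, a TGF-β family receptor gene, with 29.8, 22.4 and 22.9. Heterochronic genes had 3 of 15 and then 2 of 12, led by the Argonaute gene alg-1 with 26.04, 11.7 and 12.8. Their weak share of 13.3% was 33.3% with replicate 2 and 26.7% with replicate 1 in place of the pool. That of GATA factor genes, 25%, was 8.33% with replicate 2 and 16.7% with replicate 1, and that of bHLH genes, 17.9%, was 28.2% with replicate 1.

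The large gene families had shares below the background of 23.1%, though the intervals of the detoxification and major sperm protein lists held it. Chemoreceptor genes had 3 of 1309 optimal and 208 of the other 1306 weak (15.9%, 13.98 to 18.03%), led by srsx-26 with 36.8, 17.9 and 17.1. C-type lectin genes had 1 of 240 and then 31 of 239 (12.97%, 8.99 to 17.9%), led by clec-161 with 23.9, 15.5 and 9.69. F-box genes had 3 of 322 and then 56 of 319 (17.6%, 13.5 to 22.2%), led by fbxa-125 with 32.8, 21.8 and 10.2, and their weak share of 17.7% was 11.8% with replicate 2 in place of the pool. Detoxification genes had 2 of 185 and then 31 of 183 (16.9%, 11.8 to 23.2%), led by cyp-33B1 with 32.3, 25.7 and 10.5. Major sperm protein genes had 1 of 47 and then 5 of 46 (10.9%, 3.62 to 23.6%), led by ssp-9 with 16.8. Their weak share of 10.6% was 2.13% with replicate 2 and 17.02% with replicate 1 in place of the pool. In the chemoreceptor list 75 of the 208 genes had their weak peak in both replicate lists. Families of clustered, similar genes are not independent of each other.

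The sequence around the summits was compared between members and optimal promoter peaks for 9 words within 50 bp of the summit, on both strands, by Fisher's exact test with adjustment over the 9. The unit of these tests is the peak of 1 pooled list, and near peaks are not independent. Their p-values therefore do not hold the spread between the 2 replicates. The forkhead word was present in 10.8% (9.83 to 11.7%) of members and 4.90% (3.65 to 6.43%) of optimal promoter peaks, a ratio of 2.20 (adjusted exact p = 3.39e-09). It occurred in 11.99% of windows placed at the same median distance, 286 bp upstream, at all 19973 gene starts, and in 12.1% and 11.9% of windows 300 bp to the left and right of the members' summits. The members' share thus lay just under that of promoters in general, and the optimal peaks' share well under it. The stricter forkhead word TGTTTAC, whose reverse complement is 1 form of the first word, was at 1.60% in members, 1.40% in optimal promoter peaks and 1.48% in all promoters (ratio 1.14, adjusted exact p = 0.776). These words are short and match by letters only.

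The GA repeat went the other way. GAGAGAGA was in 1.67% (1.30 to 2.105%) of members and 5.40% (4.08 to 6.99%) of optimal promoter peaks, a ratio of 0.309 (adjusted exact p = 8.73e-10), against 0.896% of all promoter windows and 0.549% and 0.525% of the flanking windows. In the lowest 3 signal groups it was in 1.05%, 1.05% and 1.24% of members, and in signal group 4 in 3.34% (2.34 to 4.61%). Within signal group 4 it was in 34 of 880 members in both replicate lists (3.86%) and in 1 of the 168 other members (0.595%). In signal groups 1 to 3 the shares were 0.478%, 0.855% and 1.59% of members in both lists and 1.19%, 1.15% and 0.828% of the others, so the direction was not the same in all groups.

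Words rich in A and T, and a splice acceptor word, were more common in members. The GATA-factor word TGATAA was in 8.08% of members and 2.80% of optimal promoter peaks (ratio 2.89, adjusted exact p = 4.94e-10), and in 10.5% of all promoters. The homeodomain word TAATTA was at 5.29% and 1.60% (ratio 3.31, adjusted exact p = 6.79e-08), against 5.91% of all promoters. The TATA-box word TATAAA was at 11.8% and 3.80% (ratio 3.11, adjusted exact p = 8.44e-16), against 12.6%. The splice acceptor word TTTCAG was at 17.3% and 5.90% (ratio 2.93, adjusted exact p = 8.17e-22), against 18.4%. The E-box CACGTG, at 1.65% and 2.30% (ratio 0.715, adjusted exact p = 0.233), and the AP-1 word TGACTCA, at 0.620% and 0.9% (ratio 0.689, adjusted exact p = 0.435), did not pass, and they were in 1.54% and 1.07% of all promoters.

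**Figure D5:**
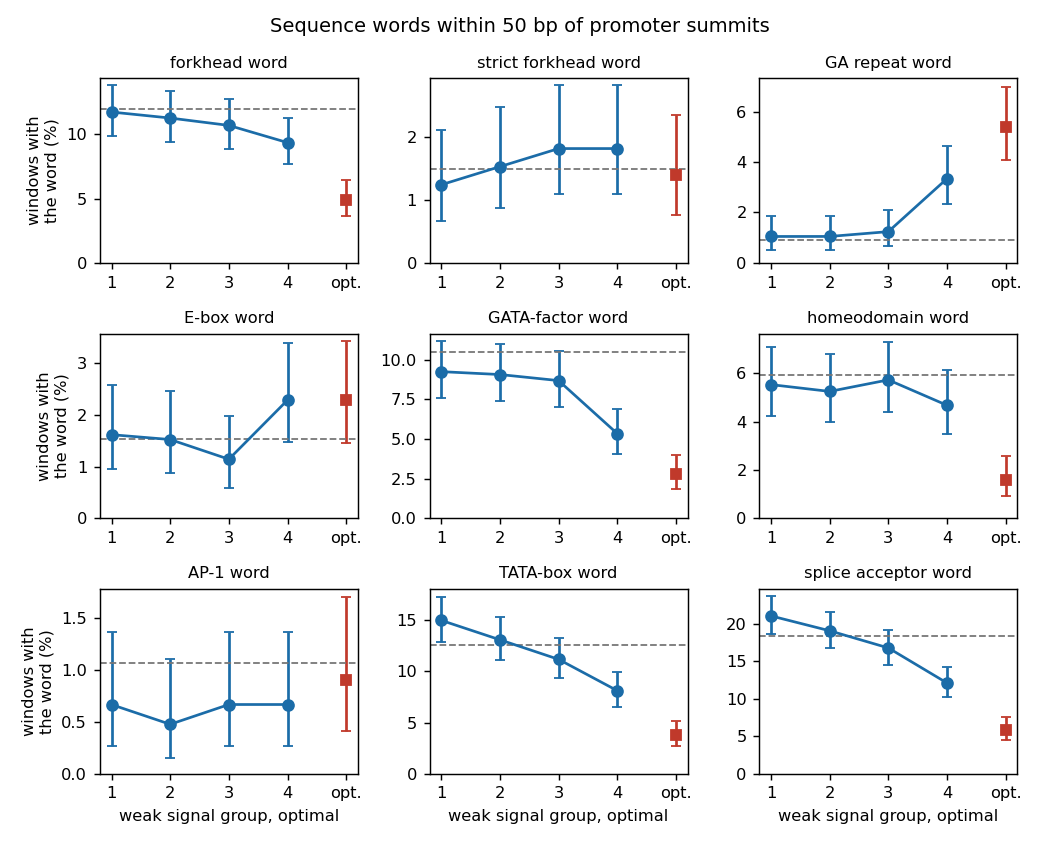
Share of 101 bp summit windows with each word (%, vertical axis) in the 4 weak signal groups (blue), and in the optimal promoter peaks (red), with exact 95% intervals. The dashed line is the share in windows at all gene starts. The intervals of the forkhead, GATA-factor and homeodomain words hold the line in signal group 1, those of the TATA-box and splice acceptor words lie above it, and all 5 words are lower in the optimal peaks, while the GA repeat stands above the line in signal group 4 and in the optimal peaks.

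Base composition moved with these words. G and C made up 37.7% of the members' windows on average, 47.1% of the optimal promoter windows and 34.4% of all promoter windows. From signal group 1 to 4 the mean was 35.7%, 36.5%, 37.7% and 41.1%, and in the flanking windows 34.7% and 34.3%. Among windows of 35 to 45% G and C, 1435 in members and 304 in optimal promoter peaks, the ratio of the forkhead word was 1.19 (adjusted exact p = 0.572), and those of the GATA-factor, homeodomain and TATA-box words were 1.32, 1.32 and 1.66 (adjusted exact p = 0.564, 0.572 and 0.110). These 4 differences thus did not pass within this range of composition, while GAGAGAGA, with a ratio of 0.348 (adjusted exact p = 0.0141), and TTTCAG, with 2.35 (adjusted exact p = 9.04e-05), did.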

How the data were processed

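ChIP-seq peaks of 2 replicates of 1 group were analysed. Per the text files deposited with the samples, the lists derive from alignments and a control file. The control's own values were not analysed here, so how far weak peaks follow its coverage was not tested. The authors deposited a signal per peak, whose scale is not given, and a −log10 q-value. The aligner and the caller of the peaks, with versions, and the IDR level were not given in the sources used here. Only the ce11 lists were used, and coordinates are 1-based. Genes came from Ensembl release 115 (WBcel235) and sequences from RefSeq's copy of the same assembly.

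A summit was given to every protein-coding gene whose promoter window held it. Replicate overlap needed 1 bp, and the highest overlapping replicate peak gave the replicate signal. Windows of 101 bp around summits were searched for 9 words, with Fisher's exact tests, 2-sided and adjusted by Benjamini-Hochberg at 0.05, and intervals are exact 95% binomial (Clopper-Pearson). Python 3.11.15, pandas 2.3.3 and scipy 1.17.1 were used. Of the code, only the word test was tried on simulated data, with windows drawn independently of each other. The 2 replicates come from separate biosamples, and no test between conditions was made.

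The members, lists, words and tests were chosen with earlier results of these data known. Named are the 10 highest members, the 5 lowest optimal promoter peaks, in each list the gene with the highest weak peak among genes with no optimal one, every forkhead gene with a weak peak, the 5 genes with most weak peaks, and the 3 members whose replicate ranks differ most. The lowest members are named in addition. Sequences were taken by signal within each kind, leaving out some regions and windows with more than 30 bases of non-coding exon. Alternatives covered other promoter windows, gene assignment, overlap rules, the higher-signal 8661 weak peaks, each replicate in place of the pool at the same ranks, and other sequence windows. Each replaced replicate list was cut at the ranks of the pooled classes. Symbols etf-1, daf-21, nca-1, kel-2, opt-2, mir-228, egr-1, lin-4, let-7 and lin-57 matched no protein-coding gene and were left out.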

Additional observations from a re-analysis of the deposited data

How the results depend on the processing

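The number of weak promoter peaks was 2549 with a window of 500 bp upstream to 100 bp downstream, 6428 with 2000 bp upstream, and 2330 in the higher-signal 8661 peaks. The promoter share was 14.7%, 37.1% and 26.9% in that order. Genes with a weak and no optimal peak numbered 2761 with the short window and 2571 in the higher-signal peaks. With either replicate in place of the pool at the same ranks there were 4159 to 4180 peaks, a share of 24.0 to 24.1%, 4207 to 4252 such genes and 20 to 27 lists above the background. The share in both replicate lists was 38.4% when at least 50% of the peak had to overlap, 28.02% with a replicate summit within 100 bp, and 32.7% with only as many top replicate peaks as the pool holds.

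For the words, the ratio of TGTTTAC was 0.859 within 25 bp and 0.817 at 35 to 45% G and C. With either replicate in place of the pool it was 0.833 to 1.49, and that of TGACTCA was 0.875 to 1.60. At 35 to 45% G and C the ratio of CACGTG was 7.20 (adjusted exact p = 0.0644). It came from 2.37% of 1435 members and only 0.329% of 304 optimal windows, so it rests on very few optimal peaks. The ratios of the forkhead, GATA-factor, homeodomain and TATA-box words were 1.19, 1.32, 1.32 and 1.66. None of these words, CACGTG included, passed the threshold. With intergenic summits only, an alternative chosen after seeing the data, the ratio of CACGTG was 0.538 (adjusted exact p = 0.0278). The cause was not tested. No paired analysis was possible because the samples form 1 group. The 2 replicates and the unknown depth and signal scale limit every value here.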
